A study of Mus musculus with 8 samples.

Results

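The genes described here encode the proteins of the mitochondrial ribosome, and they were measured in sorted bone marrow hematopoietic stem cells of control mice and of mice lacking Atg12 in blood-forming cells. A gene was a member if its symbol was Mrpl or Mrps followed by a number and at most 1 letter, where l stands for the large and s for the small ribosomal subunit. This rule found 76 genes among the 24213 genes with a symbol on the array, 47 of the large subunit and 29 of the small subunit. All 76 symbols were found in RefSeq (GRCm38.p6), where 78 symbols match the rule. Where a symbol had several features (sets of probes spread over a transcript), the feature of highest average signal across the 8 arrays was used.

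The 2 groups held 4 mice each, of strain C57BL/6, with both alleles of Atg12 floxed. The knockout mice also carried Mx1-Cre, a recombinase driven by an interferon-induced promoter and therefore not limited to blood cells, and the control mice carried no Cre, so Cre activity and loss of Atg12 cannot be told apart. Mice of both groups were injected when 4 weeks old with poly(I:C), an inducer of interferon. Marrow was collected 2 to 3 months afterwards from each mouse separately, at an age of 3 to 4 months. The sort kept cells positive for c-Kit, Sca-1 and CD150 and negative for Lin, CD48 and Flk2, their RNA was amplified, and each array gave a log2 RMA signal per gene.

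Mitochondrial ribosomes translate the few messenger RNAs of the mitochondrial genome, which encode core subunits of the respiratory chain and of ATP synthase. Their ribosomal RNAs are made inside the organelle, whereas all of their proteins are encoded by nuclear genes and imported. Compared with the bacterial ribosome they have lost RNA and gained proteins, so many members have no bacterial counterpart. Autophagy is a route by which cells remove mitochondria, and the comparison addresses whether transcripts of the mitochondrial translation apparatus differ when Atg12, a protein needed to form autophagosomes, is deleted.

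Atg12 itself checked the labels. Its signal was 6.44 ± 0.08 on control arrays and 5.50 ± 0.13 on knockout arrays (SD, n = 4 each), a log2 difference of -0.93 (limma, adjusted p = 0.031), and it was the 1 gene called among the 24213, or 0.00413% of those tested. Its adjusted p was between 0.0542 and 0.226 when any single array was left out. Array medians lay between 3.76 and 3.92. Signal of Y-linked genes marked 3 controls (1, 2 and 3) and knockouts 3 and 4, while Xist marked the other control and knockouts 1, 2 and 4. Sex was thus not balanced, and knockout 4 held both signals although the labels describe individual mice. Transcripts of the sex not present read 1.64 to 3.20, which is used below as the level of absent transcripts. Atg12 was above that level on 8 of 8 arrays, at 0.52-fold in knockouts, so its signal was lowered but not lost. Of 12 stem cell markers, 8 had a mean above that level. Slamf1, the gene of CD150, was above it on 0 of 8 arrays, Kit averaged 8.50, and Cd48, whose protein was absent by the gate, averaged 8.61. All 6 myeloid progenitor markers were above the level of absent transcripts, with Mpo at 12.21, as were 5 of 6 megakaryocyte and platelet, 3 of 5 erythroid, 2 of 6 B cell and 3 of 6 T cell markers. The values of Slamf1, Cd48 and Mpo go against the stem cell label, while that of Kit goes with it. The identity of the sorted cells was not tested. The mean of the megakaryocyte and platelet markers was 4.13 to 4.45 on control arrays and 3.68 to 4.11 on knockout arrays. Most of that gap came from Pf4, at a difference of -1.40 with overlapping groups, and the other 5 markers without it averaged 4.03 to 4.12 and 3.85 to 4.09, which overlap. The groups overlapped in the marker means of stem cells (4.25 to 4.47 and 4.23 to 4.41), myeloid progenitors (10.88 to 10.92 and 10.80 to 10.95), erythroid cells (3.87 to 4.17 and 3.89 to 4.27), B cells (3.26 to 3.55 and 3.22 to 3.39), T cells (2.96 to 3.16 and 2.93 to 3.19) and genes of the negative gate (6.97 to 7.33 and 7.14 to 7.27). Single markers within these lists lay further apart. Of the stem cell markers, 5 were higher and 7 lower, with Ly6a, the gene of Sca-1, at 0.65 and Gata2 at -0.64. Of the erythroid markers, 3 were higher and 2 lower, with Tfrc at 0.74. Of the B cell markers, 2 were higher and 4 lower, with Cd79a, at the level of absent transcripts, at -0.32. The groups were separate for Gata2, Tfrc and Cd79a, and no marker passed after adjustment. The part of these cell types in the results below was not tested. With Xist or Y-linked signal as a covariate in the limma fit, the Atg12 call was lost (adjusted p = 0.162 and 0.112) and 0 members passed. In bulk RNA, fewer cells of a type and less RNA per cell cannot be told apart.

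Transcripts of the mitochondrial ribosomal proteins were called in neither direction in knockout cells. Of the 76 members, 0 passed the test over all genes (limma, adjusted p under 0.05). At an unadjusted p under 0.05 there were 0 members, beside 4.94% of all 24213 genes (2.43% higher and 2.5% lower). The unadjusted count of members depended on how limma modelled the variance. With limma-trend it was 3 (Mrpl30, Mrps22 and Mrps34), beside 1211 of the 24213 genes, and again 0 members passed after adjustment. The contrast with all genes is therefore not read as a property of the members. Every member, 76 of 76, averaged more than absent transcripts did, with means from 5.61 (Mrps27) to 9.96 (Mrpl51) and the lowest value on any array at 5.32. The log2 differences ran from -0.18 (Mrps10) to 0.18 (Mrps34), with a median of 0.011 over the members beside 0.0017 over all genes. In 44 members (57.9%) the difference was above 0 and in 32 below. It was above 0 in 12260 of all 24213 genes and in 5479 of the 12107 at or above the median signal. The middle 50% of the members' differences lay between -0.053 and 0.065, beside -0.083 and 0.087 for all genes.

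The intervals give the differences that remain compatible with these arrays, gene by gene. The 95% interval of the difference (limma, not adjusted for the number of genes) lay within 1.5-fold in either direction for 76 of 76 members, beside 90.5% of all genes, and within 0.32 on the log2 scale for 55 of 76, beside 35.2% of all genes. The lowest bound was -0.50 (Mrps10) and the highest 0.40 (Mrpl43). The members' median SD between arrays of a group was 0.107, beside 0.175 for all genes and 0.154 for the 12107 genes at or above the median signal. Their median signal was 7.32, beside 5.96 for those 12107 genes. In the lists of other genes read below, the median SD ran from 0.065 (cytosolic ribosomal proteins) to 0.175 (mitochondrially encoded transcripts). It was 0.105 for nuclear regulators and 0.109 for mitochondrial DNA expression, so a small spread was not particular to the members.

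**Figure D1:**
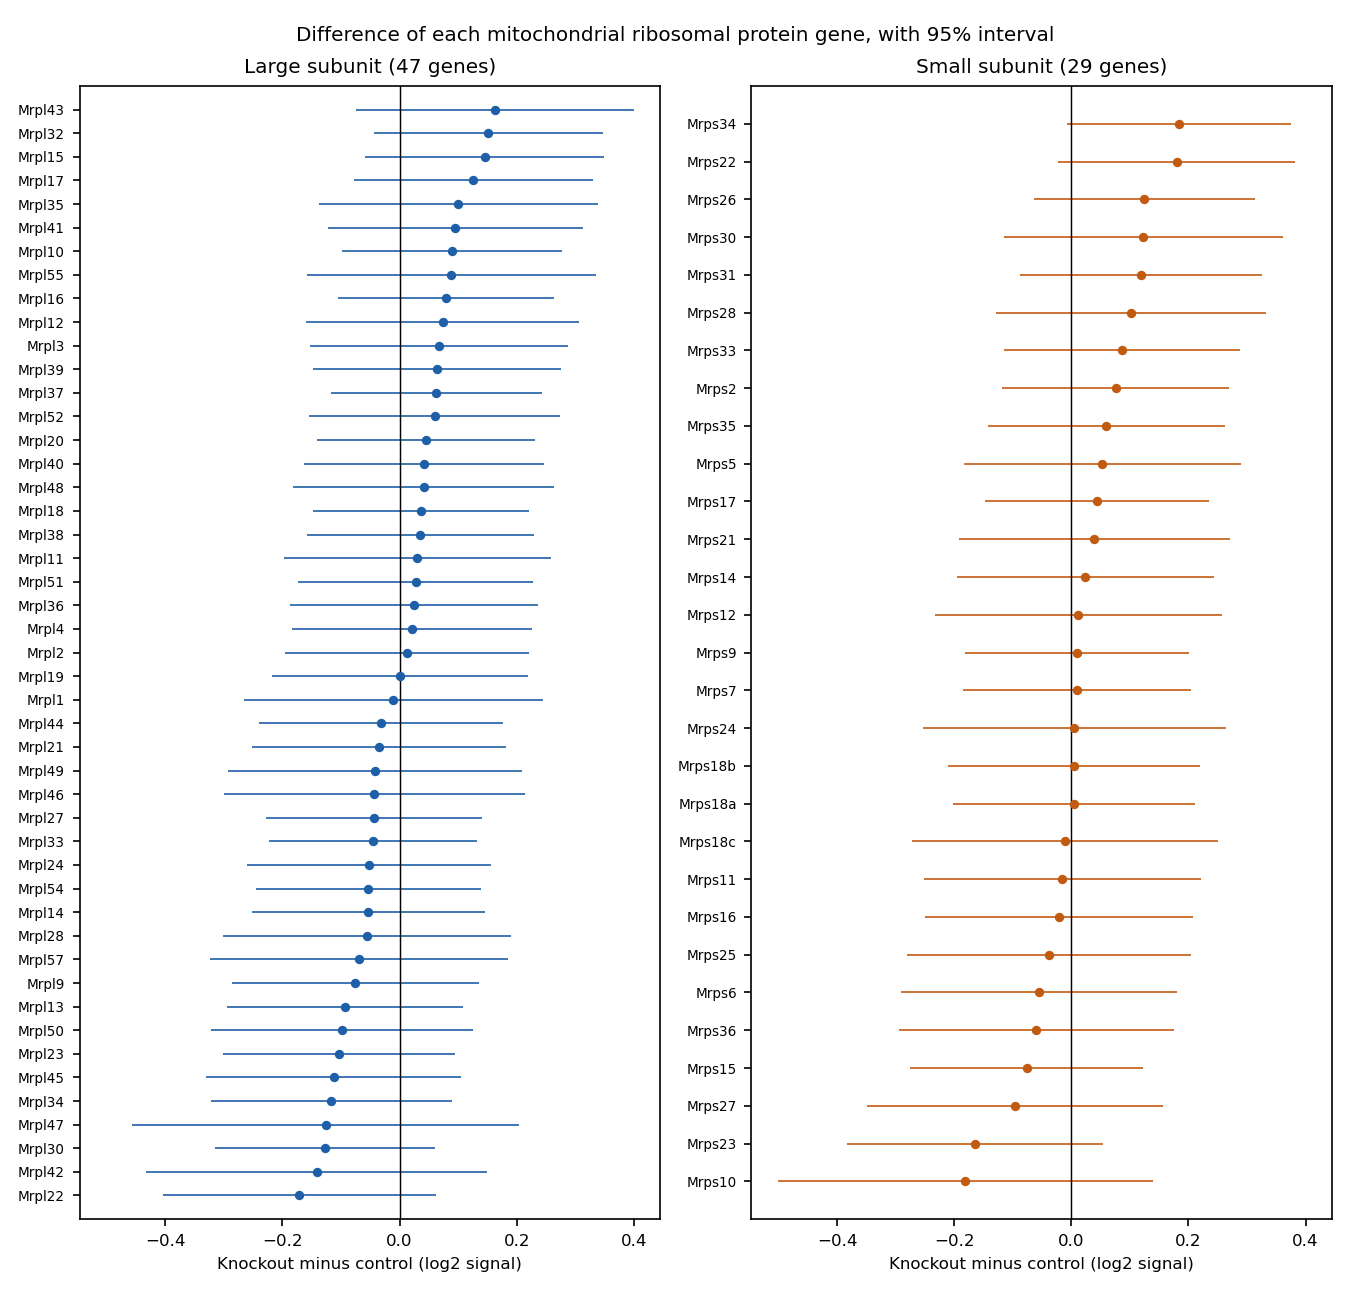
Knockout minus control difference in log2 signal for each member, sorted within the large subunit (left, 47 genes) and the small subunit (right, 29 genes). Points are differences of means of 4 arrays per group, and bars are 95% intervals from limma, and every interval includes 0. The differences run from -0.18 to 0.18.

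Sets of 4 arrays did not overlap for 4 of the 76 members, or 5.26%, where 2.9% of all genes had groups that did not overlap. These 4 genes were Mrps34, Mrpl32 and Mrps26, higher in knockout (3 members, beside 1.36% of all genes), and Mrpl30, lower in knockout (1 member, beside 1.54% of all genes). Each had a two-sided exact permutation p of 0.0286, the smallest that 4 against 4 arrays can give, and an adjusted p of 1.00 in limma.

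Mrps34, a small subunit protein with no bacterial counterpart whose human homologue is mutated in combined oxidative phosphorylation deficiency, had the smallest p of all members. It read 6.92, 7.04, 7.03 and 6.97 on controls 1 to 4 and 7.14, 7.07, 7.26 and 7.23 on knockouts 1 to 4. Every knockout array was above every control array; control 2 and knockout 2 were the nearest. The difference of 0.18 (SE 0.09), or 1.14-fold, had an unadjusted limma p of 0.0576, above the threshold even before adjustment. It was 0.0327 with limma-trend and 0.0345 among genes at or above the median signal, again without passing after adjustment.

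Mrps22, also a small subunit protein without a bacterial counterpart and also a human disease gene, read 7.45, 7.38, 7.64 and 7.51 in controls and 7.70, 7.61, 7.75 and 7.63 in knockouts. Control 3 was above knockouts 2 and 4, so the groups overlapped. The difference was 0.18 (SE 0.09, unadjusted limma p = 0.077, exact permutation p = 0.0857).

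Mrpl32, a large subunit protein of bacterial origin that is cleaved by the mitochondrial AAA protease before assembly, read 6.99, 7.09, 7.10 and 7.09 in controls and 7.11, 7.17, 7.33 and 7.27 in knockouts. The groups were separate but nearly touched, at control 3 and knockout 1. The difference was 0.15 (SE 0.09). Mrps26, a small subunit protein without a bacterial counterpart, read 6.89, 7.03, 6.93 and 7.05 in controls and 7.05, 7.13, 7.06 and 7.17 in knockouts. Control 4 and knockout 1 had nearly the same value. Its difference was 0.12 (SE 0.09).

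The other members of smallest p among those higher in knockout did not separate the groups. Mrpl15, a large subunit protein of bacterial origin, differed by 0.15, with control 2 (6.65) above knockouts 2, 3 and 4. Mrpl43, a mitochondria-specific protein of the large subunit, differed by 0.16, and knockout 3 (6.43) was its highest array. Without knockout 3 the difference of Mrpl43 was 0.073. Mrpl17, of bacterial origin, differed by 0.13 and Mrps31, mitochondria-specific, by 0.12.

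Mrps23 ranked first by p among the members lower in knockout. This mitochondria-specific small subunit protein read 6.74, 6.55, 6.69 and 6.94 in controls and 6.59, 6.53, 6.60 and 6.54 in knockouts. Control 2 lay among the knockout arrays. The difference was -0.16 (SE 0.10), and it was -0.095 without control 4, the highest array.

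Mrpl22, which lines the tunnel through which the new protein leaves the large subunit, read 6.02, 6.21, 6.06 and 6.24 in controls and 5.85, 6.05, 5.81 and 6.14 in knockouts. Knockouts 2 and 4 lay within the control range. The difference was -0.17 (SE 0.11). Mrpl30, of bacterial origin, read 9.59, 9.64, 9.68 and 9.58 in controls and 9.39, 9.50, 9.52 and 9.57 in knockouts. Knockout 4 and control 4 nearly met, and the difference was -0.13 (SE 0.08).

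Mrps10, the small subunit member with the difference furthest below 0, had a wide spread among knockouts. It read 6.37, 6.48, 6.45 and 6.37 in controls and 6.60, 6.06, 6.40 and 5.88 in knockouts. Knockout 1 was the highest of all 8 arrays and knockouts 2 and 4 were the lowest. The difference of -0.18 (SE 0.14) was -0.064 without knockout 4 and -0.30 without knockout 1. Mrpl42 (-0.14), Mrpl34 (-0.12), Mrpl45 (-0.11) and Mrpl23 (-0.10) completed the 8 members of smallest p in this direction.

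**Figure D2:**
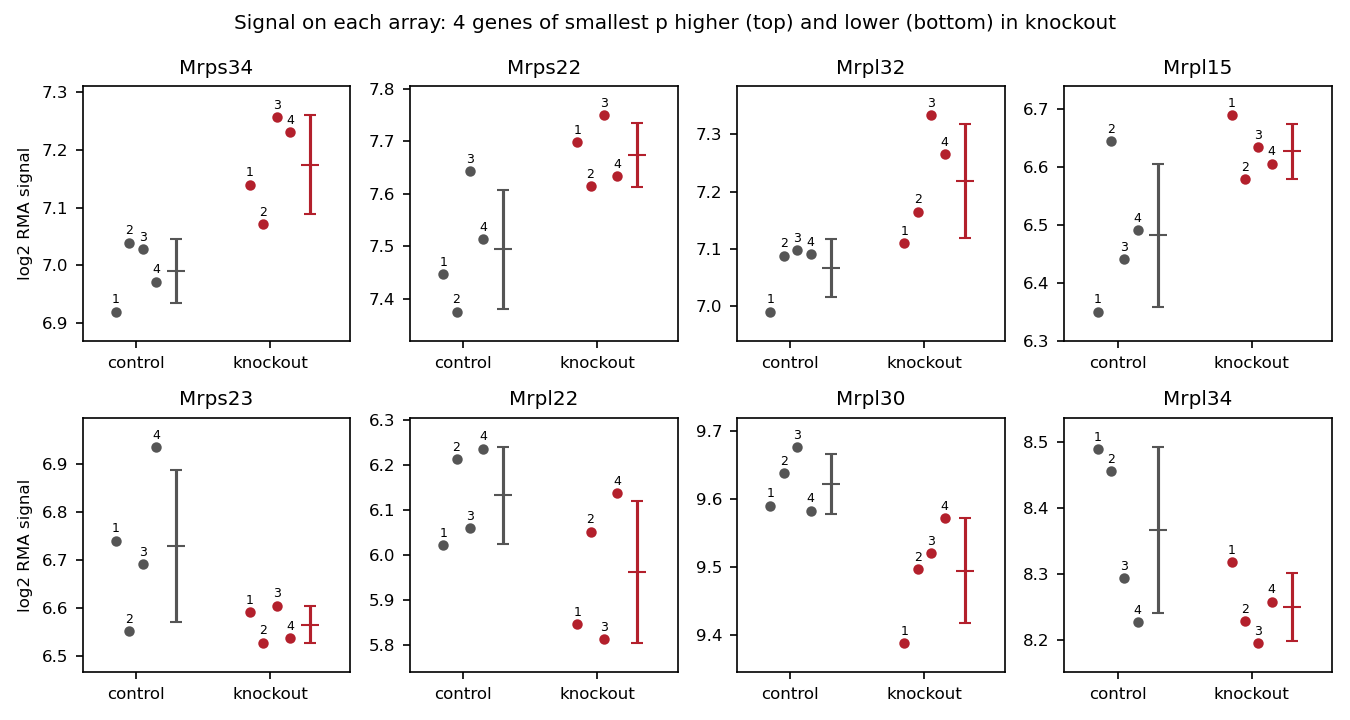
Log2 RMA signal on each array for the 4 members of smallest p that were higher (top row) and lower (bottom row) in knockout. Numbers are replicate numbers, and bars are the mean and SD of 4 arrays; the groups are separate for Mrps34, Mrpl32 and Mrpl30 and overlap for Mrps22, Mrpl15, Mrps23, Mrpl22 and Mrpl34. Each gene has its own vertical axis, which does not start at 0.

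Promoters of the members carried motifs that the rule did not use. RefSeq windows of 300 bases, from 250 before to 50 after the transcription start, were found for 67 of the 76 members and for 27025 genes in all (GRCm38.p6). Letters of the ETS family motif bound by GABP (CCGGAAG) stood in 24 of 67 members, or 35.8%, beside 9.93% of all genes with a window and 21.2% of the 8386 such genes at or above the median array signal. The NRF1 motif (GCGC, any base, then TGCGC) stood in 13 members, or 19.4%, beside 5.19% of all and 12.1% of the brighter genes. The YY1 motif (AANATGGCG) stood in 10, or 14.9%, beside 2.76% and 6.57%. NRF1, GABP and YY1 are known regulators of nuclear genes for mitochondrial proteins. At least 1 of the 3 stood in 40 members, or 59.7%, beside 15.9% of all and 34.7% of the brighter genes.

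The SP family motif (GGGCGG) stood in 50.7% of members, between its shares of 38.2% in all genes and 68.8% in the brighter genes. The remaining motifs stood at lower shares in the members than in either background. The E-box (CACGTG) stood in 7.46% of members, 8.09% of all and 11.9% of brighter genes, CCAAT in 38.8%, 41.1% and 43.0%, and TATAAA in 7.46%, 15.7% and 8.43%. Motifs were read on both strands and without testing, and the SP motif can share bases with others. The members' windows had a median GC content of 58.0% and 21 CpG, beside 60.7% and 21 for the brighter genes and 52.8% and 7 for all genes. The NRF1 motif stood in 10 of 41 large and 3 of 26 small subunit members, and the ETS motif in 13 of 41 and 11 of 26.

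The windows of the members with the smallest p in each direction, as far as the table held them, show these motifs next to the values above, with NRF1, ETS, YY1 and SP motifs in capitals (5′ to 3′ along the gene). Mrps22 and Mrpl32 were higher and Mrps23 and Mrpl22 lower in knockout without passing the test. Mrps22, Mrps23 and Mrpl22 each hold 1 ETS motif, Mrpl32 holds 1 NRF1 motif, and Mrps22 and Mrpl32 also hold 1 SP motif each. The ETS motif was thus present in windows of both directions.
Mrps22, chr9:98601630-98601929, minus strand: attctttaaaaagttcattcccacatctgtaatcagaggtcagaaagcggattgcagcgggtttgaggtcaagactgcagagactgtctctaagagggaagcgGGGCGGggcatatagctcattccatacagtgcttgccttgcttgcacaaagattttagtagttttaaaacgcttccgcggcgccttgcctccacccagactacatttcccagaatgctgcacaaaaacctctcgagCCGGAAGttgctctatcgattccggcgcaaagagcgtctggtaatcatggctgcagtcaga
Mrpl32, chr13:14612988-14613287, minus strand: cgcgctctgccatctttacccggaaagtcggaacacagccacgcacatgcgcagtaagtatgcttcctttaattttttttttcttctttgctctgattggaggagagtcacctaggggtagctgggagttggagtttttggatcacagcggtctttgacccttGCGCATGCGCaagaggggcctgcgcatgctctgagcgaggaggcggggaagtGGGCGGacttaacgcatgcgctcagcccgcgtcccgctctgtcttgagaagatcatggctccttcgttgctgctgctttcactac
Mrps23, chr11:88204138-88204437, plus strand: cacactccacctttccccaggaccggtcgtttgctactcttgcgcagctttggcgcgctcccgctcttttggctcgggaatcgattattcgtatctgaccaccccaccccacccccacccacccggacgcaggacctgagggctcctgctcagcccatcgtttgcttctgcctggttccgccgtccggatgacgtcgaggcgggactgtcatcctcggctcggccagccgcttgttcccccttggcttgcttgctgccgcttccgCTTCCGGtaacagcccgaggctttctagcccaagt
Mrpl22, chr11:58171414-58171713, plus strand: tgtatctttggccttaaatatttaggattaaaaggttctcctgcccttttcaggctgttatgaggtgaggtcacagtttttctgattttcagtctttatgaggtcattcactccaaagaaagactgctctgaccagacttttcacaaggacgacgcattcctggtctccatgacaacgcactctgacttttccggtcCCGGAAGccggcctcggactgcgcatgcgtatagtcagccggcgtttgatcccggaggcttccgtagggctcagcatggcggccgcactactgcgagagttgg

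Many members start head to head with another gene. Of the 67 members with a window, 26, or 38.8%, had a gene on the other strand starting within 1000 bases upstream, beside 12.2% of all genes and 20.3% of the brighter genes. The partner was protein-coding for 24 members, and Mrpl46 and Mrps11, of different subunits, were partners of each other, with differences of -0.043 and -0.015. Of 23 measured coding partners, 2 were at an unadjusted limma p under 0.05, both with a difference below 0, beside 4.94% of all genes in either direction, and neither passed after adjustment. Zfp189, a zinc finger gene opposite Mrpl50, differed by -0.30, and Mrpl50 itself by -0.099. Sars2, which loads serine onto mitochondrial tRNA, starts 147 bases from Mrps12, the counterpart of the bacterial decoding-site protein. Mrps12 differed by 0.01 (SE 0.11) where Sars2 differed by -0.26 (SE 0.10), and the Mrps12 window holds 1 ETS and 1 SP motif, shown in capitals.
Mrps12, chr7:28741772-28742071, minus strand: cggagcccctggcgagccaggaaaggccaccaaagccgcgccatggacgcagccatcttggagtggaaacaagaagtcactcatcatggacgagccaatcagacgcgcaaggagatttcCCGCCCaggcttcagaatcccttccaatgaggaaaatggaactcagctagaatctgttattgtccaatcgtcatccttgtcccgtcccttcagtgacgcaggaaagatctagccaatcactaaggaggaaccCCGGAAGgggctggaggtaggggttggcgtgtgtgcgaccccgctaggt

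The large and the small subunit did not differ beyond the spread between arrays. The median difference was 0.013 over the 47 large subunit genes (25 above 0) and 0.010 over the 29 small subunit genes (19 above 0), so the large subunit stood 0.002 above the small. With means in place of medians the order turned, to -0.0003 for the large and 0.019 for the small subunit. Some symbols name a subunit in which the protein does not sit: Mrps18a and Mrps30 are found in the large subunit, and Mrps36 is now assigned to the 2-oxoglutarate dehydrogenase complex. Mrps18a differed by 0.004, its paralogs Mrps18b and Mrps18c by 0.005 and -0.011, Mrps30 by 0.12 and Mrps36 by -0.06 (0.021 without knockout 3). With these genes placed by structure (49 and 26 genes), the large subunit stood 0.0014 above the small.

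On single arrays, the median deviation of the members from their gene means did not separate the groups either. For the large subunit it was -0.045, 0.055, -0.013 and -0.014 on controls 1 to 4 and 0.018, 0.004, -0.032 and 0.014 on knockouts 1 to 4. For the small subunit it was -0.072, 0.030, 0.006 and -0.022 on controls and -0.001, -0.011, 0.066 and 0.011 on knockouts. The groups overlapped in both subunits.

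Large minus small was 0.027, 0.025, -0.018 and 0.008 on controls and 0.019, 0.015, -0.098 and 0.002 on knockouts. Knockout 3 stood below the other 7 arrays. The group difference in the mean of these array values, -0.026 (SE 0.030), was smaller than its error. It is another measure than the 0.002 from medians of gene differences, and it had the other sign. Knockout 3 was also the highest array for 18 members and the lowest for 19, or 23.7% and 25% of them, beside 23.1% and 19.1% of all genes. Control 1 was the lowest array for 22 members, or 28.9%, beside 11.9% of all genes.

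**Figure D3:**
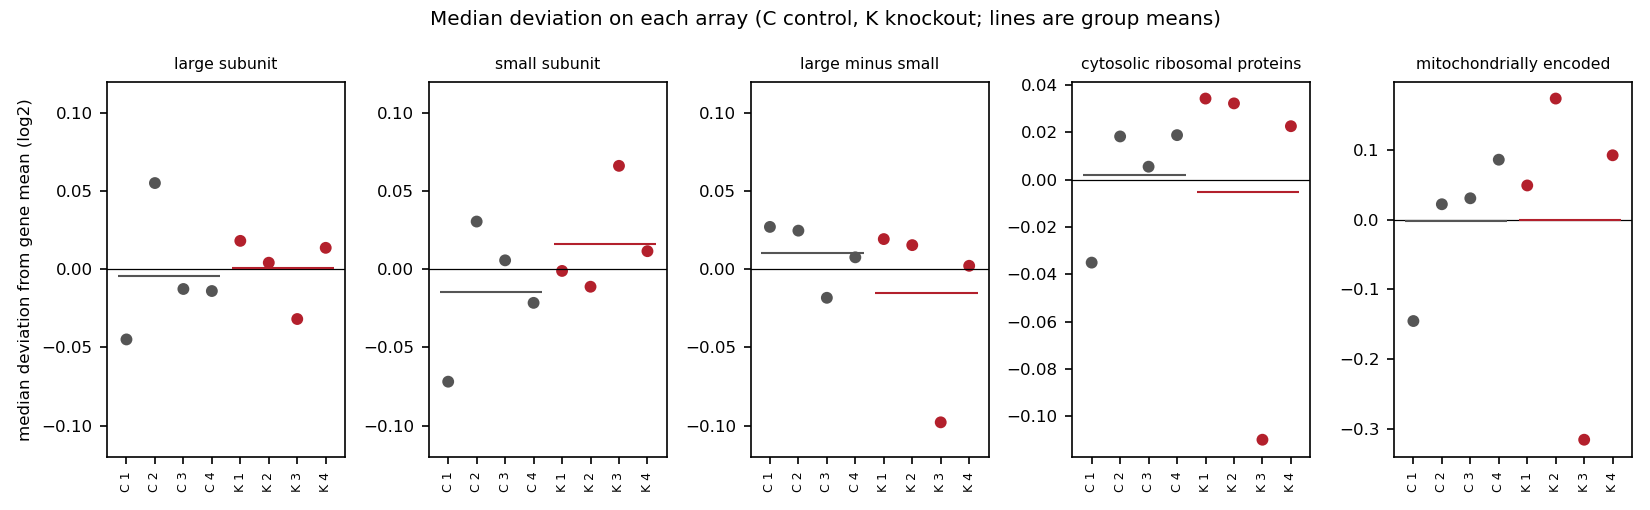
Median deviation from the gene mean (log2) on each array for the large subunit, the small subunit, their difference, the cytosolic ribosomal proteins and the mitochondrially encoded transcripts. Points are arrays and lines are group means; the last 2 panels have their own vertical axes. Knockout 3 is the lowest array in the last 3 panels, at -0.098, -0.110 and -0.315.

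Within the large subunit, genes of 3 structural regions were read from lists. Of 7 genes listed for the exit tunnel, 6 were below 0 and the median was -0.10. They were Mrpl22 (-0.17), Mrpl47 (-0.13), Mrpl45 (-0.11, which ties the ribosome to the inner membrane), Mrpl23 (-0.10), Mrpl24 (-0.052) and Mrpl44 (-0.032). Mrpl39 was at 0.064. The list need not hold every protein of the region, and Mrpl17 (0.13) was not on it. None of the 7 was at an unadjusted p under 0.05, and knockout 3 was the lowest array for Mrpl22, Mrpl23, Mrpl24 and Mrpl47. Without knockout 3 the median of the 7 was -0.019 and 4 of them were below 0. Mrpl22 and Mrpl45 then each differed by -0.12, Mrpl23 by -0.052 and Mrpl44 by -0.019, while Mrpl47 (0.0005) and Mrpl24 (0.002) were no longer below 0. When any other array was left out, 5 or 6 of the 7 were below 0.

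Stalk proteins, which recruit translation factors, lay above 0 in 3 of 3 measured genes (Mrpl10 0.090, Mrpl11 0.031, Mrpl12 0.074), and Mrpl53 was not measured under its symbol. Without knockout 3, 1 of the 3 was above 0 (Mrpl10 at 0.058), with Mrpl11 at -0.033 and Mrpl12 at -0.006. In the central protuberance, 6 of 8 genes were above 0, with a median of 0.039 and a range from -0.044 (Mrpl27) to 0.088 (Mrpl55, -0.009 without knockout 3). None of these genes was at an unadjusted p under 0.05 (limma).

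Members were also split into proteins added in the mitochondrial lineage and proteins inherited from bacteria, with no gene of either set at an unadjusted p under 0.05. Mrps18a, Mrps18b, Mrps30, Mrps36 and Mrpl57 were placed in neither set. The 26 members with no bacterial counterpart had a median difference of 0.042 (16 above 0), and the 45 with a counterpart had 0.009 (25 above 0). The 9 mitochondria-specific small subunit genes, which include Mrps34, Mrps22, Mrps26, Mrps31 and Mrps23, had a median of 0.086 with 6 above 0. The 17 measured mitochondria-specific large subunit genes had 0.035 with 10 above 0. The 12 members whose human homologues cause combined oxidative phosphorylation deficiency ran from -0.16 (Mrps23) to 0.18 (Mrps34), with a median of 0.045.

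For 8 members the array holds 2 features, which give a second reading of the gene from the same RNA on the same arrays. Agreement between them is thus not a repeat of the difference between groups. The signs of the differences were the same in 6 of the 8 genes (Mrpl23, Mrpl41, Mrpl47, Mrpl51, Mrps36 and Mrps5) and opposite in Mrpl27 (-0.044 and 0.026) and Mrps33 (0.086 and -0.006). RefSeq names pseudogenes after 5 of the 8 (Mrpl23, Mrpl27, Mrpl51, Mrps33 and Mrps36), and the files do not say which locus a feature probes.

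The dimmer Mrpl47 feature was the exception to overlap among these. It read 6.09, 6.03, 5.97 and 6.10 in controls and 5.85, 5.80, 5.63 and 5.95 in knockouts. The groups did not overlap, though control 3 and knockout 4 nearly met, and the difference was -0.24 (two-sided exact permutation p = 0.0286). The brighter feature differed by -0.13 with overlapping groups (exact permutation p = 0.514). Of all genes, at 1 feature each, 2.9% had groups that did not overlap. The dimmer feature was not in the limma fit and was singled out after its values were seen. Mrpl47 also had the largest SD within groups of all members, 0.242, ahead of Mrps10 (0.231) and Mrpl42.

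**Figure D4:**
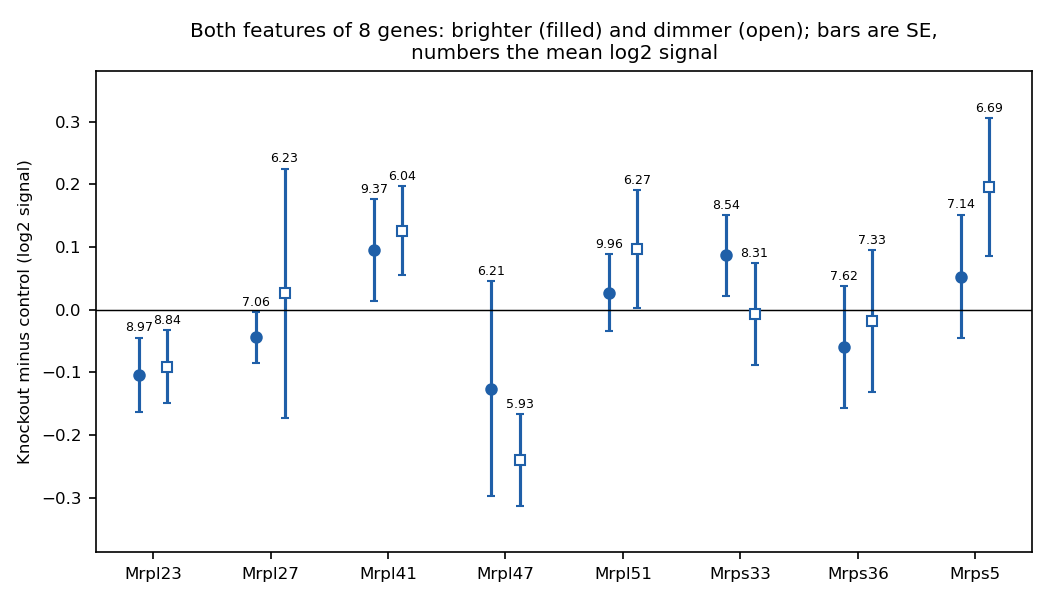
Knockout minus control difference (log2 signal) for both features of 8 members, the brighter filled and the dimmer open, with the SE from 4 arrays per group and the mean log2 signal above each. The sign is shared in 6 of the 8 genes, and the dimmer Mrpl47 feature lies lowest, at -0.24.

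Other genes of mitochondrial translation were read from lists. The 6 measured mitoribosomal proteins under other names (7 listed) had a median of 0.033, with 6 above 0 and Gadd45gip1 first by p at 0.14. Of 12 translation factors the median was -0.062, from Mtrf1l (a release factor, -0.26) to Gfm2 (a recycling factor, 0.20). The 25 measured assembly factors had a median of 0.025, with Noa1, a GTPase, at 0.17 and Ftsj2, an rRNA methyltransferase, at -0.29. In these 3 lists 0 genes were at an unadjusted p under 0.05.

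Enzymes that load mitochondrial tRNAs included 3 of 20 genes at an unadjusted p under 0.05, or 15%, beside 4.94% of all genes in either direction. All 3 were lower in knockout, where 2.5% of all genes were lower at that threshold. After adjustment 0 passed (limma, adjusted p = 0.991 for Sars2, Ears2 and Qrsl1). Sars2 read 5.72, 5.93, 5.73 and 5.83 in controls and 5.55, 5.47, 5.46 and 5.69 in knockouts. Its groups did not overlap (exact permutation p = 0.0286), and neither did those of Qrsl1. Thus 2 of the 20 were lower without overlap, beside 2.9% of all genes in either direction and 1.54% lower. Ears2, for glutamate, differed by -0.30 with overlapping groups, and Qrsl1, a subunit of the enzyme that makes glutaminyl-tRNA, by -0.29. When single arrays were left out, Ears2 ranged from -0.37 to -0.22. For Sars2 and Qrsl1 the sign could not change on leaving out 1 array, because their groups were separate. Pars2, for proline, was at 0.13, and the median of the 20 was -0.020.

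Genes of mitochondrial DNA expression had a median of 0.007 over 13 measured genes and a range from -0.155 to 0.157. First by p in each direction were Polrmt, the mitochondrial RNA polymerase, at -0.094 and Top1mt at 0.16. Nuclear regulators had a median of 0.052 over 10 genes, with Gabpb1 at -0.11, whose sign rested on knockout 3 (0.083 without it). Ppargc1a was at 0.20, but its mean of 2.47 was within the range of absent transcripts. The 14 measured mitochondrially encoded transcripts had a median of 0.003, including mt-Rnr1, the small ribosomal RNA, at 0.068 and CYTB at -0.034 (0.027 without knockout 3). The 80 cytosolic ribosomal protein genes had a median of -0.007, with Rps14 at -0.095 and Rpl39l, at the level of absent transcripts, at 0.29. None of these lists held a gene at an unadjusted p under 0.05.

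**Figure D5:**
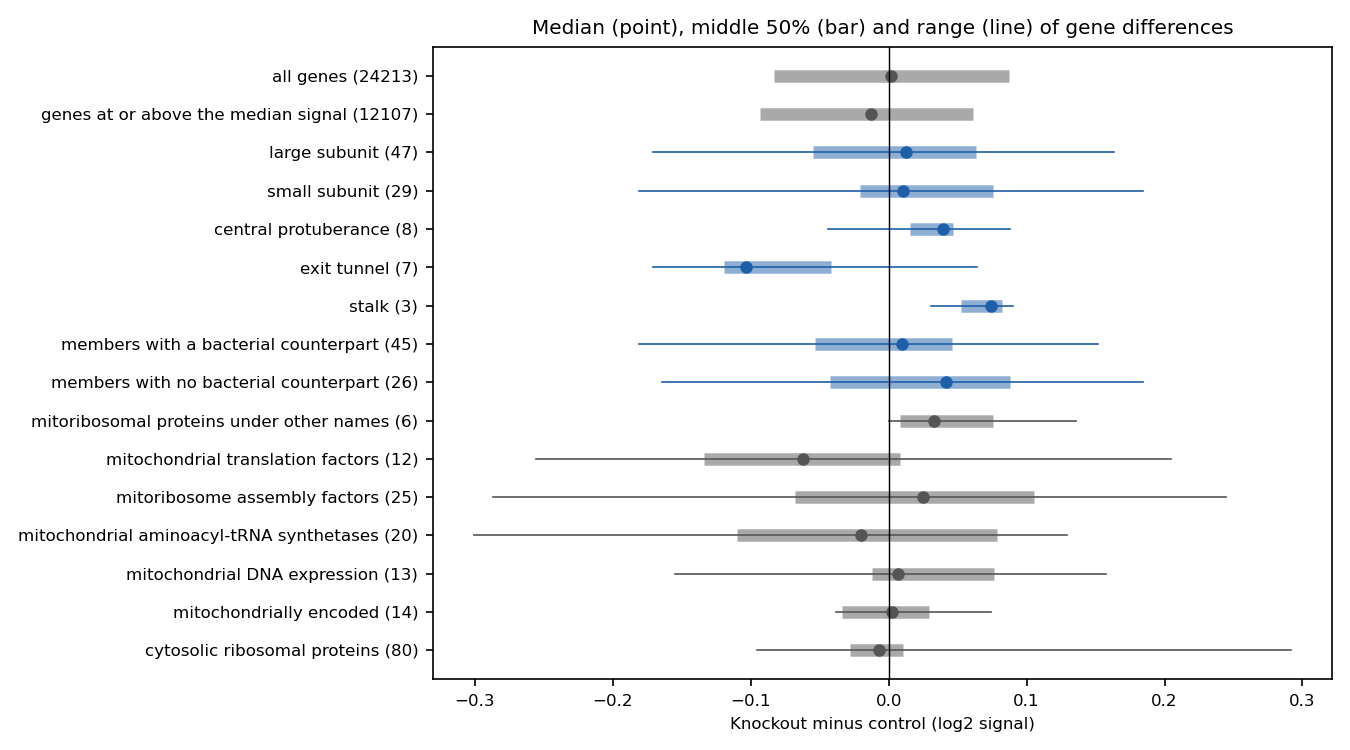
Knockout minus control differences (log2 signal) in each list, with the number of measured genes in brackets. Points are medians, bars the middle 50% and thin lines the range (not drawn for the first 2 rows); blue marks the members and grey other genes. Among the lists drawn, medians lie between -0.104 for the exit tunnel and 0.074 for the stalk.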

How the data were processed

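Signal was measured in 8 samples, 4 control and 4 knockout, with Affymetrix Gene ST 1.0 arrays. The deposited values were log2 signals per feature; per the submitters' processing notes, the tools were RMA and limma, with no version or setting, and the annotation and build behind the symbols are not given in the sources used here. RMA equalises signal distributions, so a shift shared by most genes would not be seen. Of 28853 features, 1494 had no symbol; 24213 genes remained at 1 feature per symbol. All columns matched a sample by name (0 left over).

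Groups were compared in R 4.3.3 with limma 3.58.1 (lmFit, eBayes) over all genes, with Benjamini-Hochberg adjustment and a threshold of 0.05, and single genes by an exact permutation test (two-sided, 70 assignments). The fit was tested on simulated data. The number of arrays limits the precision. The members and lists were chosen with earlier results of these data known.

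Named genes were Atg12, the 8 members of smallest p in each direction, those of highest or lowest signal or largest SD (3 each), members with several features, the subunit placement genes, Mrpl12, and in each other list the gene of smallest p per direction. Genes named outside this rule (region members, head-to-head partners, single cell type markers, Ears2 and Qrsl1) were chosen after their values were seen. Promoter windows came from RefSeq and were read with Python 3.11.15 and pandas 2.3.3. Alternatives were a replicate block, omission of each array, features averaged, 2 signal filters, repeated quantile normalization, median centring, limma-trend, robust eBayes, array weights, Xist or Y-linked signal as a covariate, and the series values; omission of knockouts 3 and 4 together was added after seeing the data.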

Additional observations from a re-analysis of the deposited data

Results flagged for a closer look

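Among 74 groups of 4 arrays, 4 held an array set far from the other 3; chance marks about 1 in 20 groups. Mrpl32 read 6.99 on control 1, where the other controls lay between 7.09 and 7.10. Mrpl51 read 10.07 on control 1, beside 9.90 to 9.92 on the other controls. The large minus small subunit median was -0.098 on knockout 3, beside 0.002 to 0.019 on the other knockouts. The median over cytosolic ribosomal proteins was -0.110 on knockout 3, beside 0.023 to 0.034 on the other knockouts.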

How the results depend on the processing

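No member passed the adjusted threshold under any of the 21 alternatives (limma; lowest adjusted p of a named member 0.584). Members higher at an unadjusted p under 0.05 numbered 0 as reported, 1 with Xist or Y-linked signal as a covariate, with either signal filter or with quantile normalization repeated, 2 with limma-trend, 3 when counted as groups that do not overlap, and 0 to 1 when single arrays were left out. Members lower numbered 0 as reported, 1 with the Xist covariate, limma-trend or groups that do not overlap, and 0 to 1 when single arrays were left out. Mrps34 was the member at the unadjusted threshold with the filters, the repeated quantile normalization, the Y-linked covariate and without knockout 2; it was Mrps22 without control 3 and Mrps10 without knockout 1. Genes past the adjusted threshold (1 as reported, Atg12) numbered 0 with the Xist or Y-linked covariate, with median centring, with the replicate block and without knockouts 3 and 4, and 0 to 3 when single arrays were left out, with 3 without control 4. Among Atg12 and the named members, Atg12 was the 1 that passed. Under those same 5 settings 0 did, and 0 to 0 without single arrays.

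Replicate numbers did not pair the arrays: deviations of same-numbered arrays correlated between -0.10 and 0.12, and 2 of 8 arrays correlated best with their own number. With the replicate block, 0 members were at an unadjusted p under 0.05 and Atg12 had an adjusted p of 0.227. The median difference of the members kept its sign throughout, from 0.003 to 0.028. Large minus small changed sign without 6 of the single arrays (-0.030 to 0.011) and in 4 other settings (-0.027 to 0.005). Of 30 named members, 9 changed sign in at least 1 alternative. These 30 include the 8 members of smallest p in each direction, a choice that favours a stable sign. Among the members outside the 30, Mrpl1 and Mrpl19 each changed sign without 5 of the single arrays, and Mrpl10 without 0. With 4 arrays per group, differences within the intervals given above remain compatible with the data.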
